A study of Drosophila melanogaster with 63 samples.

Results

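NURF301 sites that cells kept after CP190 knockdown were set directly against those kept after Su(Hw) knockdown. The peaks of the 2 CP190 knockdown libraries and the 3 Su(Hw) knockdown libraries merged into 5114 sites wherever they shared at least 1 bp. The comparison is about 2300 of these sites, out of 8701 merged over all 14 NURF301 lists. A site counted as kept in both knockdowns when all 5 lists held a peak there. A site kept in one knockdown alone had a peak in every list of that knockdown and in no list of the other.

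All libraries came from the Drosophila line Kc167, of female embryonic origin. Cells were nucleofected with 5 ug of dsRNA to Cp190 or to su(Hw) and grown for 4 days before harvest, and mock-treated cells were the control. NURF301 knockdown, used here to check the antibody, had the same dose and time, with 3 NURF301 libraries. NURF301 was mapped by chromatin immunoprecipitation and sequencing (ChIP-seq), with one peak list per library. The mock libraries form a mock and a mock2 series of 3 each. CP190 knockdown titles follow the style of the mock series and Su(Hw) knockdown titles that of mock2, so knockdown and series cannot be told apart. Nothing in the labels says that replicates were separate cultures, so their spread may be technical.

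NURF is an ISWI-family remodelling complex that slides nucleosomes, and NURF301, the product of E(bx), is its largest subunit. Gypsy-type insulators are bound by Su(Hw) through its zinc fingers. Su(Hw) is found there with CP190 and Mod(mdg4)67.2, both BTB domain proteins. CP190 also sits at many gene promoters and boundary elements without Su(Hw), brought there by other DNA-binding proteins.

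The NURF301 lists held 4403 and 4574 peaks after CP190 knockdown and 1819, 1965 and 2027 after Su(Hw) knockdown, against 4608 to 8226 in the 6 mock lists. No read depth is stated for any library, and peak number is the only measure of how much each list holds. The log2 ratio of peak numbers, CP190 over Su(Hw) knockdown, was 1.21 (exact two-sided permutation test over 10 splits, p = 0.2, the smallest 2 against 3 libraries allow). In the knockdown of the same protein, CP190 lists held 1203 and 1280 peaks and Su(Hw) lists 74, 77 and 96, against 5984 to 10553 and 3990 to 5358 in mock. After NURF301 knockdown the NURF301 lists held 253, 1 and 24 peaks. Su(Hw) ChIP in CP190 knockdown cells was not analysed here.

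NURF301 sites found after Su(Hw) knockdown were mostly also found after CP190 knockdown. Of the 5114 merged sites, 976 were kept in both knockdowns (19.1%), 1317 in CP190 knockdown alone (25.8%) and 7 in Su(Hw) knockdown alone (0.137%). Between 37.5% and 43.1% of the peaks of a CP190 knockdown list were found in a given Su(Hw) knockdown list. In the other direction, 93.6% to 95.8% of the peaks of a Su(Hw) knockdown list were found in a given CP190 knockdown list. Replicates shared 85.7% to 89.1% of peaks within CP190 knockdown and 60.3% to 71.5% within Su(Hw) knockdown. The shorter lists have fewer places in which to hold a peak, and a single site cannot be tested, since 2 of 2 against 0 of 3 gives p = 0.1 in Fisher's exact test.

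The remaining 2814 sites had mixed presence. Both CP190 knockdown lists and 1 Su(Hw) knockdown list held 803 of them, and both CP190 knockdown lists and 2 Su(Hw) knockdown lists held 764. A further 930 had a peak in a single CP190 knockdown list and no other.

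**Figure D1:**
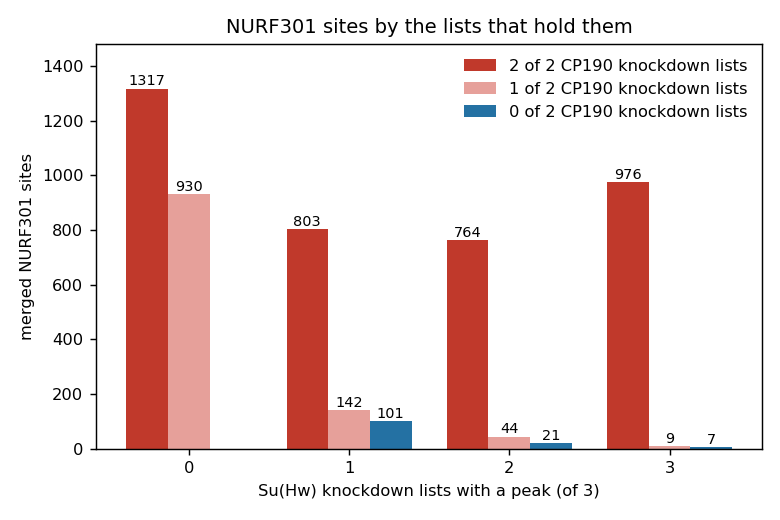
Number of merged NURF301 sites (vertical axis) by how many of the 3 Su(Hw) knockdown lists held a peak (horizontal axis) and how many of the 2 CP190 knockdown lists did (bar colour). The bar at 1317 is the sites of CP190 knockdown alone, the bar at 976 those kept in both, and the bar at 7 those of Su(Hw) knockdown alone.

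Almost all of these sites were ordinary NURF301 sites of mock cells. Mock NURF301 reference sites, defined by 4 or more of the 6 mock lists, covered 1310 of the 1317 sites of CP190 knockdown alone, all 7 of Su(Hw) knockdown alone, and all 976 kept in both. Strength followed the number of lists. Sites of CP190 knockdown alone had a median -log10 q of 19.2 and 20.5 in the CP190 knockdown lists. Sites kept in both had a median of 33.9 and 37.3 in those lists, and of 18.5, 16.9 and 22.6 in the Su(Hw) knockdown lists. The q is the authors' value at the peak summit and depends on library depth. Values of several lists are therefore given side by side and compared only by rank within a list. The exception is a -log10 q threshold of 20, tried as an alternative. The kept-in-both sites also ranked high in mock cells, where their median percentile was 82.5 to 90.6 over the 6 lists. Sites of CP190 knockdown alone had a median percentile of 34.6 to 61.8 in the mock lists that held them. After NURF301 knockdown, which tests the antibody, 14.4%, 0% and 2.36% of the sites kept in both had a peak, and 1.82%, 0.0759% and 0.0759% of those of CP190 knockdown alone.

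The strongest NURF301 site shared by both knockdowns lay at E(bx) itself, the gene for NURF301, at its border with mthl14 (3L, 246366 to 247362, counted from 1, with chromosome names and extents as in Release 6). Its -log10 q was 215.0 and 203.3 after CP190 knockdown and 70.5, 62.3 and 127.3 after Su(Hw) knockdown. It was the strongest peak of both CP190 knockdown lists and ranked 1, 2 and 1 in the Su(Hw) knockdown lists. In mock cells it ranked 44, 29 and 5 in the mock series and 39, 1 and 16 in mock2. CP190 ChIP at this site gave a -log10 q of 13.1 in the first CP190 knockdown library and no peak in the second, 51.3, 21.5 and 51.1 after Su(Hw) knockdown, and 111.2 to 253.3 in mock.

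The other leading shared sites at gene ends were those of CG40228, AlkB with Gbeta13F, CG41128, Tim17b, CG17486, CG3107, Nipped-A, Maf1 and RNASEK. AlkB encodes a nucleic acid demethylase, Gbeta13F a G protein beta subunit, Tim17b a subunit of the mitochondrial import channel, Nipped-A the large scaffold protein of the SAGA and Tip60 acetyltransferase complexes, and Maf1 a repressor of RNA polymerase III. At CG40228 (3L, 27083549 to 27084481) the -log10 q was 171.6 and 183.1 after CP190 knockdown and 69.5, 53.0 and 97.0 after Su(Hw) knockdown. At Nipped-A (2R, 5250609 to 5251469) it was 100.1 and 110.6, against 40.9, 34.1 and 87.3. Neither was a CP190 site by the rule used here, which asks for 4 or more of the 6 mock CP190 lists. Both nevertheless had a CP190 peak in all 3 libraries of the mock series and in none of mock2, so the CP190 label of such sites turns on the series. Away from gene ends, the leading shared sites lay in stw, CkIIalpha, Ir41a and d4 and near CG41128.

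Sites of CP190 knockdown alone were led by a position inside pnt, which encodes an ETS transcription factor downstream of receptor tyrosine kinases (3R, 23331183 to 23331753). Its -log10 q was 157.2 and 142.4 after CP190 knockdown, ranks 3 and 6 of those lists, and no Su(Hw) knockdown list held a peak there. Among mock libraries it ranked 3544, 4517 and 65 in the mock series and 2636, 194 and 3136 in mock2. In mock cells this site carried CP190, Su(Hw) and Mod(mdg4)67.2. CP190 ChIP still gave a -log10 q of 90.4 and 72.9 there after CP190 knockdown. After Su(Hw) knockdown it gave no peak in 2 libraries and 12.4 in the third.

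Of the 15 named sites of CP190 knockdown alone, 10 carried all 3 insulator proteins in mock cells. These are the strongest sites of the class, and over the whole class 203 of 1317 (15.4%) did, against 6.43% of all 5114 merged sites. Of 985 mock NURF301 reference sites with all 3 proteins, 20.6% had peaks in CP190 knockdown alone. The share was 18.9% of those with CP190 alone and 16.8% of all 7360 reference sites, so it differed little. The 10 lay at the ends of CG43759, TER94, CG3626, shakB, LysB and CG30286, inside pnt and ush, and near CG15282 and upd2. TER94 encodes an AAA ATPase of protein quality control, shakB a gap junction protein, ush a cofactor of GATA factors in blood cell development, and upd2 a ligand of the JAK/STAT pathway. The TER94 site (2R, 9988712 to 9989616) had a -log10 q of 70.6 and 84.3 after CP190 knockdown and no peak in the 3 Su(Hw) knockdown lists. At upd2 (X, 18239195 to 18239745) the values were 58.3 and 75.0, again with no peak after Su(Hw) knockdown. CP190 ChIP remained at both sites after CP190 knockdown, with a -log10 q of 218.5 and 216.3 at TER94 and 180.9 and 214.6 near upd2. After Su(Hw) knockdown it was 45.0, 23.1 and 90.0 at TER94 and 13.95, absent and 24.2 near upd2.

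Su(Hw) itself was still detected at some of these sites. Su(Hw) ChIP after Su(Hw) knockdown gave a peak in all 3 libraries at TER94 (-log10 q of 25.6, 33.1 and 73.5), at CG30286, near upd2 and near CG15282, while NURF301 had none. Over all 1317 sites of CP190 knockdown alone, 2.81%, 3.11% and 4.02% had a Su(Hw) peak in those libraries, against 16.8% to 17.8% in the 6 mock Su(Hw) lists.

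The remaining named sites of CP190 knockdown alone were Eip74EF, bcd, CG31886, BORCS7 with CG13430 and CG8303 with CG8306. Eip74EF, an ecdysone-induced ETS factor, carried CP190 and Mod(mdg4)67.2 without Su(Hw) in mock. The others carried CP190 alone by the rule for reference sites, although bcd had a Mod(mdg4)67.2 peak in mock replicate 2 (-log10 q of 27.4). At bcd, the gene of the anterior morphogen of the embryo (3R, 6759409 to 6759984), the -log10 q was 72.1 and 79.6 after CP190 knockdown with no peak after Su(Hw) knockdown. CP190 stayed at that site in both knockdowns, with a -log10 q of 116.1 and 100.4 after CP190 knockdown and 120.2, 61.4 and 232.0 after Su(Hw) knockdown.

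The 7 sites of Su(Hw) knockdown alone ranked near or below the middle of the Su(Hw) knockdown lists, at a median percentile of 51.3, 48.4 and 33.4. They lay at the ends of aub with lectin-33A and of Fum2 with Pink1, inside eRF3 and IntS6, and near CG42402, CG13970 and Oseg2. Their -log10 q was 9.22 to 41.6, the highest near CG42402, where it was 19.2, 24.0 and 41.6. By the rule for reference sites, none carried Su(Hw) or Mod(mdg4)67.2 in mock, and 4 carried CP190. All 4 of those kept a CP190 peak in all 3 Su(Hw) knockdown libraries. Single mock lists held more peaks than the rule counts. Near CG13970, Mod(mdg4)67.2 had a -log10 q of 16.6 in mock replicate 2. Su(Hw) had 10.2 and 11.3 there in mock2 replicates 2 and 3. The CP190 lists of the mock series held a peak at 5, 5 and 6 of the 7 sites. With the threshold raised to a -log10 q of 20, no site was left in this class. That cut lay above the median -log10 q of every Su(Hw) knockdown list (17.2, 14.6 and 18.1). It lay below that of both CP190 knockdown lists (22.4 and 23.7). The cut thus bore harder on the Su(Hw) knockdown lists, and the loss of this class cannot be read as a result about its sites.

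**Figure D2:**
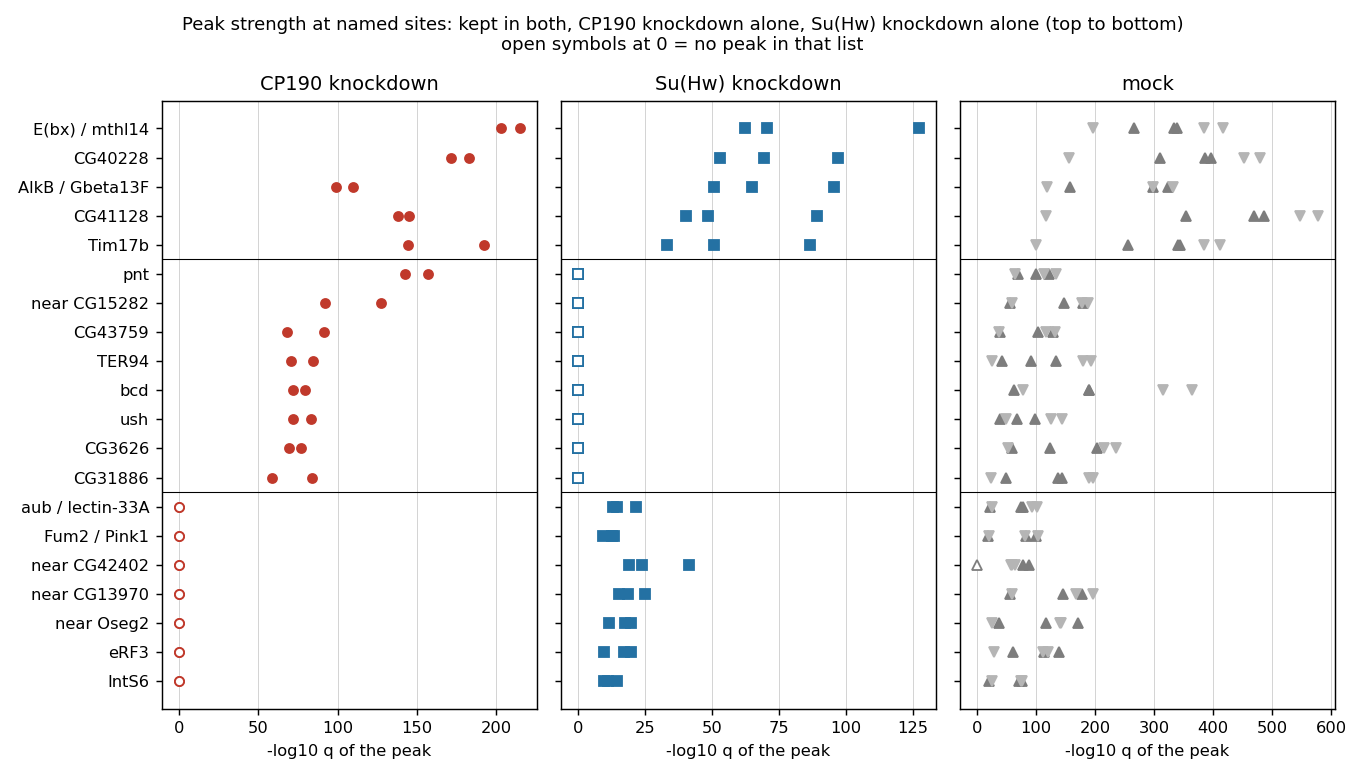
Deposited -log10 q of the NURF301 peak (horizontal axes, each panel on its own scale) at 5 sites kept in both knockdowns, 8 of CP190 knockdown alone and the 7 of Su(Hw) knockdown alone, from top to bottom. Each point is a library, with CP190 knockdown in the left panel, Su(Hw) knockdown in the middle and mock at the right (upward triangles mock, downward mock2), and open symbols at 0 mark lists with no peak. At pnt the CP190 knockdown points are at 157.2 and 142.4 and all Su(Hw) knockdown symbols are open.

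The classes differed in the insulator proteins they carried in mock cells, which the rule did not use. These shares are descriptions with no test, since sites of one library share their source. Mod(mdg4)67.2 marked 214 of the 1317 sites of CP190 knockdown alone (16.2%) and 3 of the 976 kept in both (0.307%). Su(Hw) marked 227 (17.2%) and 12 (1.23%). CP190 was common in both classes, at 84.1% of the sites of CP190 knockdown alone and 88.3% of those kept in both. Sites with CP190 but neither of the others made up 878 and 850 sites. Sites at no reference site of these proteins made up 201 and 114. The label turns on the mock2 series, since 105 of the 201 and 99 of the 114 had a CP190 peak in all 3 lists of the mock series and none had one in mock2.

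The classes also differed in position. A boundary site lay within 500 bp of an annotated end of a protein-coding gene. Boundary sites made up 76.1% of sites of CP190 knockdown alone, 93.1% of sites kept in both and 82.0% of all 5114 merged sites. A pair or more of genes ended or began at 49.1% and 74.9%. Among sites of CP190 knockdown alone, those with all 3 insulator proteins were at a boundary in 58.1% of cases and those with CP190 alone in 87.9%. The merged sites had a median width of 482 bp for CP190 knockdown alone and 693 bp for both, and wider sites overlap more features.

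The shift in Mod(mdg4)67.2 was seen at the step to complete absence after Su(Hw) knockdown. Among sites in both CP190 knockdown lists, the share with Mod(mdg4)67.2 was 16.2% where no Su(Hw) knockdown list held a peak, 2.49% where 1 did, 0.916% where 2 did and 0.307% where all 3 did. The share at boundaries was 76.1%, 89.5%, 92.8% and 93.1% in the same order. The CP190 share was 84.1%, 89.3%, 91.0% and 88.3%.

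The 3 shared sites with Mod(mdg4)67.2 were a site near CCKLR-17D1, a cholecystokinin-like receptor gene, one between AGO1 and Rpn13, and one at CG14621. They are named because the count is small, after their values were seen. Near CCKLR-17D1 (X, 18703828 to 18704346) the -log10 q was 43.5 and 42.2 after CP190 knockdown and 18.4, 28.0 and 23.8 after Su(Hw) knockdown. At AGO1, which encodes the Argonaute of the miRNA pathway, it was 48.9 and 37.0, against 12.4, 14.3 and 23.1.

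Recovery was next counted at sites that the knockdown lists did not choose. Mock cells gave 7360 such reference sites. Of these, 56.1% and 58.2% had a peak after CP190 knockdown and 23.8%, 25.4% and 26.1% after Su(Hw) knockdown. The groups did not overlap, with means of 57.2% ± 1.499 (SD, n = 2) and 25.1% ± 1.20 (SD, n = 3). The difference was 32.0 percentage points (exact two-sided permutation test, p = 0.2, the smallest allowed). It was 28.6 points after subtraction of the mock series with matching titles from each knockdown. With each list cut to the same number of peaks, it was 0.577 points. The cut nearly fixes that value in advance, since 99.6% of the merged sites were reference sites. Every knockdown or mock list cut in this way recovered 23.7% to 24.7% of the reference sites. In no list of either knockdown was a peak found at 2560 of the 7360 sites (34.8%).

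The gap was widest, as a ratio, at sites with CP190, Su(Hw) and Mod(mdg4)67.2. Of 985 such sites, 26.2% and 29.9% had a NURF301 peak after CP190 knockdown, against 0.914%, 1.22% and 1.62% after Su(Hw) knockdown. At the 4364 sites with CP190 alone the values were 74.0% and 76.7%, against 35.9%, 38.02% and 37.7%. At the 1844 sites with no reference insulator site, of which 739 had a CP190 peak in all 3 lists of the mock series, they were 30.4% and 30.5%, against 7.54%, 9.71% and 13.1%. At the 125 sites with CP190 and Su(Hw) but no Mod(mdg4)67.2 they were 44.8% and 44.0%, against 16%, 12.8% and 14.4%. All 4 classes were higher in both CP190 knockdown libraries than in every Su(Hw) knockdown library, by 20.3 to 38.1 points (exact permutation test, p = 0.2 before and after Benjamini-Hochberg adjustment over the 4 classes).

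Recovery at sites with all 3 proteins was also divided by recovery at sites with CP190 alone in the same library. That ratio was 0.354 and 0.390 after CP190 knockdown and 0.0254, 0.0320 and 0.0431 after Su(Hw) knockdown. The shortest mock lists gave 0.565 (mock replicate 3) and 0.458 (mock2 replicate 2), although these lists helped to choose the sites. The mock2 list with 4608 peaks is close in length to the CP190 knockdown lists. It recovered 35.9% of the sites with all 3 proteins and 78.4% of those with CP190 alone.

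The same comparison was made with lists of equal length, by keeping the 1819 strongest peaks of each. Recovery at sites with CP190 alone then lay close together, at 33.7% and 33.6% after CP190 knockdown, 35.9%, 35.4% and 34.1% after Su(Hw) knockdown and 34.2% to 35.5% in mock. Recovery at sites with all 3 proteins was 12.1% and 13.0% after CP190 knockdown, 0.914%, 0.914% and 1.42% after Su(Hw) knockdown and 4.16% to 7.92% in mock. At this length the CP190 knockdown libraries lay above all 6 mock libraries and the Su(Hw) knockdown libraries below all 6. For CP190 knockdown the order depended on the cut. With full lists, CP190 knockdown recovered 26.2% and 29.9% of these sites, below the 35.9% of the mock2 list with 4608 peaks.

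The difference between the knockdowns at those sites was 11.5 percentage points (exact two-sided permutation test, p = 0.2, adjusted p = 0.267 over the 4 classes). Su(Hw) knockdown libraries averaged 1.08% ± 0.293 (SD, n = 3), against 6.07% ± 1.33 in mock (SD, n = 6), a difference of -4.99 points (exact permutation test, p = 0.0238, adjusted p = 0.0476). CP190 knockdown libraries averaged 12.5% ± 0.646 (SD, n = 2), 6.46 points above the same mock libraries (exact permutation test, p = 0.0714, the smallest allowed, adjusted p = 0.143). Against the series with matching titles, the CP190 knockdown values of 12.1% and 13.0% compare with 4.16% to 6.40% in mock, and the Su(Hw) knockdown values of 0.914% to 1.42% with 5.08% to 7.92% in mock2. Sites with CP190 and Su(Hw) but no Mod(mdg4)67.2 had 16.8% and 19.2% after CP190 knockdown, 16%, 12.8% and 13.6% after Su(Hw) knockdown and 18.4% to 24.0% in mock. For that class Su(Hw) knockdown was -6.53 points from mock (exact permutation test, adjusted p = 0.0476). Both mock series are pooled in these tests, and in this class they did not overlap (18.4% to 20% in mock, 20.8% to 24.0% in mock2). Against mock2 alone, Su(Hw) knockdown was -5.55 points at sites with all 3 proteins and -8.0 points in this class (exact permutation test, p = 0.1 each, the smallest 3 against 3 libraries allow, adjusted p = 0.2). CP190 knockdown was 7.02 points above the mock series at sites with all 3 proteins (exact permutation test, p = 0.2, the smallest allowed). The comparison with mock at equal length was added after the data were seen, and mock lists helped to choose the sites.

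**Figure D3:**
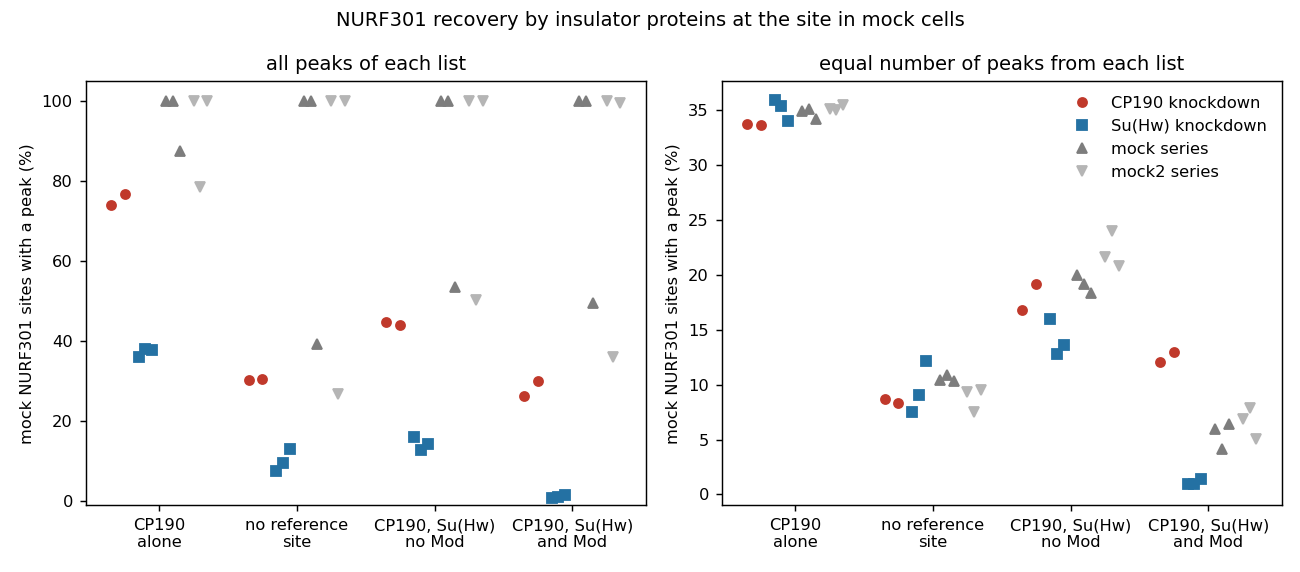
Share of mock NURF301 sites with a peak (vertical axis, %) by the insulator proteins at the site in mock cells (horizontal axis), for all peaks at the left and for the 1819 strongest peaks of each list at the right. Each point is a library, with CP190 knockdown first, Su(Hw) knockdown second and both mock series last in every class. At equal length the sites with all 3 proteins separate the groups, at 12.1% and 13.0%, 0.914% to 1.42% and 4.16% to 7.92%.

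Counted by peaks, 133 and 144 of the 1819 strongest CP190 knockdown peaks lay at a mock Mod(mdg4)67.2 site, against 21, 10 and 8 after Su(Hw) knockdown and 54 to 98 in mock. With equal lists the merged sites numbered 3305, of which 599 were kept in both, 212 in CP190 knockdown alone and 139 in Su(Hw) knockdown alone. Mod(mdg4)67.2 marked 83 of the 212 (39.2%) and none of the 139. The full lists had given 1317 sites against 7, so these counts depended on list length. The leading site of the 139 lay between hob, which encodes a large conserved protein needed for regulated secretion, and nSMase, a neutral sphingomyelinase gene. Its -log10 q was 24.1 and 27.3 after CP190 knockdown, below the cut for those lists, and 29.8, 29.9 and 35.1 after Su(Hw) knockdown.

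Sites were then grouped into quintiles by their NURF301 strength in mock cells. In the third quintile, 51.1% and 52.8% of 176 sites with all 3 proteins had a peak after CP190 knockdown, against 0%, 0% and 1.14% after Su(Hw) knockdown. At sites with CP190 alone in the same quintile the values were 69.9% and 74.3%, against 13.3%, 17.4% and 15.8%. In the strongest quintile, sites with all 3 proteins had 89.7% and 92.3%, against 20.5%, 17.9% and 10.3%, on 39 sites. Sites with CP190 alone in that quintile had 97.1% and 98.6%, against 75.0%, 75.7% and 75.1%. In both of these quintiles, every library of either knockdown was lower at sites with all 3 proteins than at sites with CP190 alone. In the third quintile this also held for mock2 replicate 2 (70.5% against 78.6%) but not for mock replicate 3 (97.7% against 96.5%). In the strongest quintile every mock list was at 100% in both classes.

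**Figure D4:**
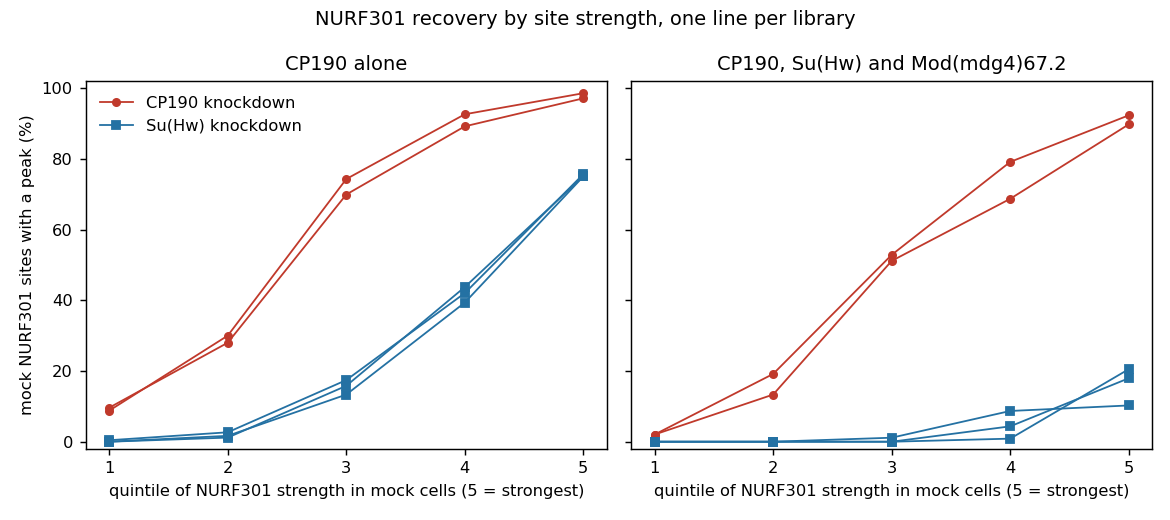
Share of mock NURF301 sites with a peak (vertical axis, %) in quintiles of NURF301 strength in mock cells (horizontal axis, 5 the strongest), at sites with CP190 alone (left) and with all 3 proteins (right). Each line is a library, circles for CP190 knockdown and squares for Su(Hw) knockdown. In the strongest quintile the Su(Hw) knockdown lines reach 75.0% to 75.7% at the left and 10.3% to 20.5% at the right.

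CP190 peaks remained at different NURF301 sites in each knockdown. Of the 985 sites with all 3 proteins, 45.7% and 49.8% still had a CP190 peak after CP190 knockdown, against 20%, 15.9% and 17.3% after Su(Hw) knockdown. At the 4364 sites with CP190 alone the order turned, with 15.1% and 15.6% after CP190 knockdown, against 82.7%, 71.3% and 76.5% after Su(Hw) knockdown. The CP190 ChIP lists were also of different length, at 1203 and 1280 peaks against 3688 to 4227.

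NURF301 recovery was set beside CP190 at the same sites. Among sites with all 3 proteins after CP190 knockdown, 49.1% and 53.2% of the 432 with a CP190 peak in every list of that knockdown had NURF301, and 8.40% and 11.1% of the 476 with none. After Su(Hw) knockdown, 4.96%, 5.67% and 6.38% of the 141 sites with CP190 in every list had NURF301, and 0.128% in each library of the 781 with none. Sites with CP190 were also stronger NURF301 sites in mock: after CP190 knockdown the strongest quintile held 31 of the 432 and 8 of the 476. Within the third quintile of strength the CP190 knockdown values were 63.9% and 63.03% of 119 sites with CP190 and 25.6% and 27.9% of 43 without. At sites with CP190 alone, NURF301 was found after CP190 knockdown at 71.1% and 73.3% of the 3626 sites that had no CP190 peak left, and at 91.0% and 95.2% of the 601 that had one in every list. After Su(Hw) knockdown it was found at 42.5%, 42.7% and 38.8% of the 2921 such sites with CP190 in every list, and at 13.7%, 24.0% and 29.1% of the 612 with none. Within strength quintiles that last difference did not hold in every library. In the strongest quintile the values were 77.0%, 76.5% and 71.5% with CP190 in every list, on 980 sites, against 48.7%, 74.4% and 91.0% with none, on 78 sites. The third Su(Hw) knockdown library was higher at sites with no CP190 peak in the upper 3 quintiles. The part of residual CP190 in the NURF301 values was not tested.

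**Figure D5:**
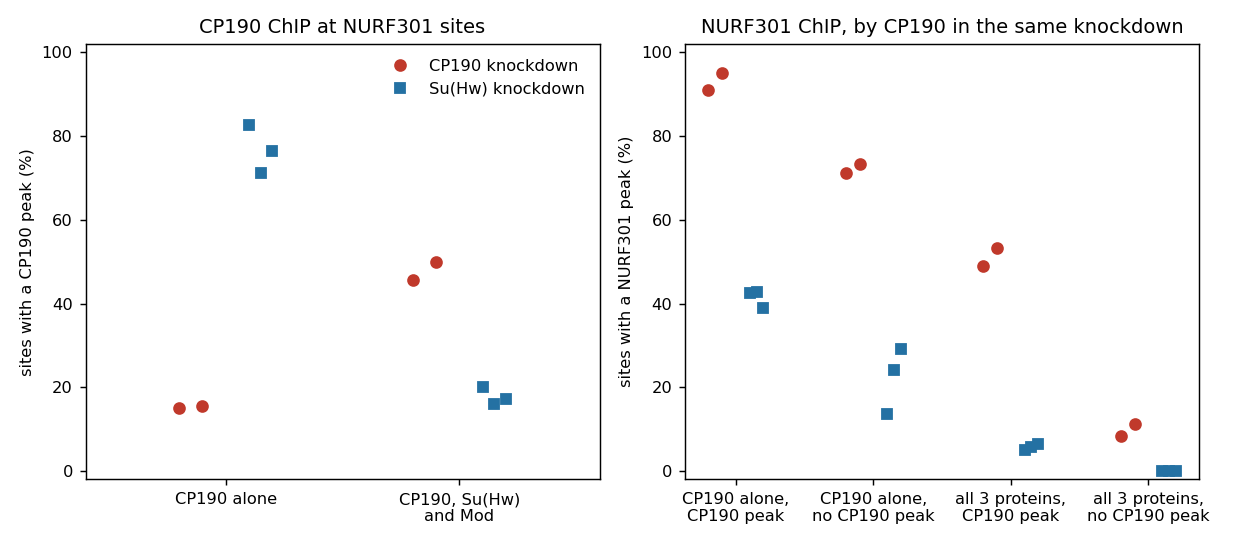
Left, share of mock NURF301 sites with a CP190 peak (vertical axis, %) in CP190 ChIP after CP190 knockdown (circles) and Su(Hw) knockdown (squares), at sites with CP190 alone and with all 3 proteins. Right, share with a NURF301 peak at those sites, split by whether every CP190 list of the same knockdown or none held a CP190 peak. At sites with all 3 proteins and CP190 in every list, NURF301 was at 49.1% and 53.2% after CP190 knockdown and 4.96% to 6.38% after Su(Hw) knockdown.

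In both classes of the direct comparison CP190 remained more often after Su(Hw) knockdown. At the 1107 sites of CP190 knockdown alone with CP190 in mock, a CP190 peak remained at 29.4% and 30.9% after CP190 knockdown, against 74.4%, 60.8% and 68.8% after Su(Hw) knockdown. At the 862 such sites kept in both it remained at 18.7% and 19.6%, against 91.3%, 80.0% and 85.6%.

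Within each library, the peaks that remained lay mostly at gene ends. Boundary peaks made up 84.1% and 83.5% after CP190 knockdown and 88.4%, 91.6% and 90.6% after Su(Hw) knockdown, a difference of -6.39 points (exact permutation test, p = 0.2). It was -2.39 points with equal lists and -2.49 points with peaks of -log10 q of at least 20. The share of peaks at a mock CP190 site was 84.8% and 85.0%, against 90.9%, 89.0% and 85.7%, a difference of -3.63 points (exact permutation test, p = 0.2). That difference turned positive with peaks of -log10 q of at least 20 (5.73 points) and with equal lists (1.40 points), so its direction depended on the setting.

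The 976 sites kept in both were ranked against each other within each list. Percentiles in this paragraph are among these sites and not over the whole list. A site was counted higher when both CP190 knockdown percentiles exceeded all 3 Su(Hw) knockdown percentiles, which held for 146 sites (15%). The opposite held for 137 sites (14%). Spearman's rho over the 976 sites was 0.758 between the CP190 knockdown libraries, 0.351 to 0.471 among the Su(Hw) knockdown libraries and 0.361 to 0.515 across knockdowns. The range across knockdowns overlapped that among the Su(Hw) knockdown replicates. The site at dco, the casein kinase gene also called doubletime, stood at percentiles 92.8 and 94.5 after CP190 knockdown and 29.2, 37.0 and 2.15 after Su(Hw) knockdown. A site near mod(mdg4) stood at 19.2 and 17.7, against 71.6, 86.8 and 82.3. Both sites were picked from the extremes of this comparison. The mod(mdg4) site had a -log10 q of 22.7 and 24.4 after CP190 knockdown. That is close to the medians of the whole lists (22.4 and 23.7).

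A gene was counted once by its boundary sites, as kept in both if any site was, then as CP190 knockdown alone, Su(Hw) knockdown alone or mixed. Sites inside or near a gene did not count, so the sites named above near upd2 and inside Eip74EF and ush do not enter. Of the 1531 genes counted under CP190 knockdown alone, 188 had another boundary site held by a Su(Hw) knockdown list. Of 13911 protein-coding genes, 7825 had a NURF301 site in the knockdown or mock lists. A site kept in both was found at 21.8% of these, one of CP190 knockdown alone at 19.6%, mixed presence at 40.9% and no peak in either knockdown at 17.7%. Genes for NURF subunits and other remodellers had 12 of 22 with a site kept in both, 4 of CP190 knockdown alone, 6 mixed and none without a peak. The 12 included E(bx), Iswi (the ATPase of NURF), Caf1-55 (its histone-binding subunit), brm and mor (subunits of the SWI/SNF-type complex), Mi-2 and Ino80. Nurf-38, also a NURF subunit gene, was mixed. Its site had a peak in the second CP190 knockdown list alone (-log10 q of 13.1) and in no Su(Hw) knockdown list. At Iswi the -log10 q was 70.0 and 56.9 after CP190 knockdown and 17.6, 11.7 and 25.0 after Su(Hw) knockdown. Acf, Chrac-14, osa and polybromo had sites of CP190 knockdown alone, and Acf also had a site held by both CP190 knockdown lists and 2 Su(Hw) knockdown lists.

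Of 9 JAK/STAT genes with a site, 5 had one kept in both and 4 were mixed. The 5 were the receptor gene dome, the kinase gene hop, the transcription factor gene Stat92E, Ptp61F, a phosphatase that dampens the pathway, and Su(var)2-10, the PIAS-type inhibitor. Su(var)2-10 also had another site, of CP190 knockdown alone. At dome the -log10 q was 18.3 and 19.9 after CP190 knockdown and 20.2, 10.2 and 16.9 after Su(Hw) knockdown. The inhibitor genes Socs16D, Socs36E and Socs44A and the repressor gene ken were mixed.

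Of 17 insulator protein genes with a site, 5 were kept in both, 4 in CP190 knockdown alone, 5 were mixed and 3 had no peak. Cp190, CTCF, BEAF-32, Top2 and pzg were kept in both. At Cp190 the -log10 q was 31.1 and 47.6 after CP190 knockdown and 15.1, 14.3 and 27.4 after Su(Hw) knockdown. The gene su(Hw) itself had a site of CP190 knockdown alone (3R, 14307884 to 14309299, at its border with Polr2I), with a -log10 q of 44.4 and 59.7 and no peak in the 3 Su(Hw) knockdown lists. That site carried all 3 insulator proteins in mock. Ibf1, Ibf2 and dwg, which encode DNA-binding insulator proteins, were also in CP190 knockdown alone, although Ibf1 had a second, mixed site.

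Hox genes had no NURF301 peak left in either knockdown at any of the 5 with a site in mock (Dfd, Scr, Ubx, abd-A and lab). Heat shock genes had 1 of 11 kept in both (Hsc70-4), 3 in CP190 knockdown alone (Hsp68, Hsp70Ba and Hsp83), 2 mixed and 5 without a peak. Hsp83 also had a mixed site. The Hsp70 copies are nearly identical, so reads there may be shared among them. Ecdysone response genes had 3 of 9 kept in both (the receptor genes EcR and usp, and Hr39) and 2 in CP190 knockdown alone (ftz-f1, which also had a mixed site, and tai). Cell cycle genes had 9 of 37 kept in both, 10 in CP190 knockdown alone (5 of them with another site held by a Su(Hw) knockdown list) and 18 mixed. Cytoplasmic ribosomal protein genes had 15 of 87, 26 (6 of them with another such site) and 37, with 9 without a peak.

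Markers of blood cells, the lineage Kc167 resembles, had sites at 8 genes. The scavenger receptor gene crq was kept in both, and the GATA factor gene srp and the receptor tyrosine kinase gene Pvr had sites of CP190 knockdown alone. Hml, drpr and ush were mixed, and Col4a1 and vkg had no peak in either knockdown. The srp site carried all 3 insulator proteins in mock and had a -log10 q of 24.1 and 21.5 after CP190 knockdown. Of the neuronal genes, 4 had a site, 1 of them (brp) in CP190 knockdown alone and none kept in both.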

How the data were processed

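NURF301 ChIP-seq peak lists were compared between CP190 knockdown (2 libraries) and Su(Hw) knockdown (3 libraries) of Kc167 cells, with 6 mock lists and the CP190, Su(Hw) and Mod(mdg4)67.2 lists as annotation. The authors called peaks per library. Per the submitters' processing notes the tools were MACS2 2.2.7.1, Picard 2.25.2, Bowtie2 2.4.2 and SAMtools 1.12. Settings, the control library and the genome build are not given in the sources used here. Each deposited list holds a score, a ratio (fold enrichment of the summit) and the -log10 p and -log10 q of the peak, all the authors' values. They were used here to rank peaks within a list and, for q, to set a threshold.

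Peaks on 6 main chromosomes were merged at 1 bp with pandas 2.3.3 and numpy 2.4.6 under Python 3.11.15, tested with scipy 1.17.1 and plotted with matplotlib 3.10.9. Reference sites had a peak in at least 4 of 6 mock lists, or 2 of 3 for Mod(mdg4)67.2. The Mod(mdg4)67.2 lists all belong to the mock series, whose titles match CP190 knockdown, and mock2 has none. Strength in mock is the mean percentile over the 6 mock lists, with 0 where a list has no peak. Genes came from RefSeq (Release 6 plus ISO1 MT), which holds no strand. Exact permutation tests of group means were two-sided. The merging and class steps were run on simulated lists in which every replicate held every site of its class. Peaks missed by single replicates were not simulated, so this checks the steps and not the classes found here. Named sites are, per class, the 10 boundary sites and 5 others with the highest mean within-list percentile of -log10 q over the lists that hold them. The members and gene lists were chosen with earlier results of these data known. Promoter motifs were planned but not run, as no sequence was used here. Peak names number the Su(Hw) knockdown lists differently from their titles. Titles were followed. The alternatives tried were a -log10 q threshold, equal list length, other overlap and boundary rules, each library left out, a replicate block, subtraction of the matching mock series and stricter reference sites.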

Additional observations from a re-analysis of the deposited data

How the results depend on the processing

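Under the alternatives, 88 values kept their direction and, for counts, stayed within 1.5 times, 13 counts moved further and 4 differences reversed. With a -log10 q threshold of 20, the difference in the share of peaks at mock CP190 sites turned to 5.73 points, 164 sites were kept in both and 0 in Su(Hw) knockdown alone. That threshold lay above the median of each Su(Hw) knockdown list and below that of both CP190 knockdown lists. With equal lists, the difference in that share was 1.40 points, in recovery at CP190-alone sites -1.45 and at sites with no reference insulator site -1.06, and the classes held 599 (both), 212 (CP190 knockdown alone) and 139 (Su(Hw) knockdown alone) sites. The cause of the reversals was not tested. Leaving out a library in turn gave 10 to 17 sites of Su(Hw) knockdown alone, against 7. Peak summits gave 17. Keeping sites in 1 of 2 CP190 knockdown or 2 of 3 Su(Hw) knockdown lists gave 1793, 2247 and 28. The replicate numbers did not pair the libraries (correlations of deviations from -0.00562 to 0.00562). With a replicate block the recovery difference was 32.5 points (exact sign-flip test, p = 0.5, the smallest allowed). The block changed no other call, and no block could be made for the counts of sites, which come from no test. Peak number limits what a list can show: an absent peak is not an absent protein.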
